A study of Rattus norvegicus with 6 samples.

Results

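The endoplasmic reticulum (ER) unfolded protein response (UPR) was followed through 10 genes, Ern1, Xbp1, Hspa5, Hsp90b1, Calr, Pdia4, Dnajb9, Sdf2l1, Herpud1 and Edem1. They were picked by gene symbol as known genes of this response, at a time when earlier results of these data were known, and each matched 1 row of a count table of 18930 genes. All 10 passed the filter on low counts, which left 11870 genes. RNA came from NRK-52E, a wild-type rat kidney epithelial cell line, with 3 Control samples and 3 samples given streptozotocin (STZ), a DNA-alkylating glucose analog, at 10 mM for 24 h before extraction. The Controls are described by the study as vehicle-treated. All 6 samples are of this 1 line, grown in culture, and the sources used here do not say whether the replicates were separate cultures, so the p-values measure the spread between these samples.

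The ER folds secreted and membrane proteins with the help of chaperones and of enzymes that form disulfide bonds. When unfolded proteins accumulate, the membrane sensors IRE1α (encoded by Ern1), PERK and ATF6 signal to the nucleus. IRE1α splices the mRNA of Xbp1, which then encodes an active transcription factor, and ATF6 is cut in the Golgi to release another. Both raise genes of folding and of ER-associated degradation, in which misfolded proteins are pulled back to the cytosol for the proteasome. PERK slows translation and favours ATF4 and CHOP. Counts per gene do not separate the spliced from the unspliced Xbp1 mRNA, and they say nothing of sensor activity.

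Several of these genes carry the ER stress response element, through which ATF6 acts with the factor NF-Y. The upstream sequences are shown so that the genes with and without this element can be compared beside their values. RefSeq (GRCr8) promoter windows, 250 bases before to 50 after the gene start, were found for 9 of the 10 genes, and Ern1 had no entry. The element ERSE was searched as CCAAT, 9 bases and CCACG, and ERSE-II as ATTGG, 1 base and CCACG, on both strands. In the sequences, which run to the base before the gene start, capitals mark both conserved parts of each element, which read as their reverse complement where the element lies on the other strand. Pdia4, the 1 gene called lower below, is shown as 1 of 4 windows with neither element and so without capitals.
Hspa5 (GRCr8 chr3:38452766-38453015, plus strand): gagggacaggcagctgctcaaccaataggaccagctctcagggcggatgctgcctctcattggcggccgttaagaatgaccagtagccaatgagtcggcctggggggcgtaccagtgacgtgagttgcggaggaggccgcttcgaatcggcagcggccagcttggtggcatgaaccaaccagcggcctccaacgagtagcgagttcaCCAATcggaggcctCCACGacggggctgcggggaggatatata
Hsp90b1 (GRCr8 chr7:23012294-23012543, minus strand): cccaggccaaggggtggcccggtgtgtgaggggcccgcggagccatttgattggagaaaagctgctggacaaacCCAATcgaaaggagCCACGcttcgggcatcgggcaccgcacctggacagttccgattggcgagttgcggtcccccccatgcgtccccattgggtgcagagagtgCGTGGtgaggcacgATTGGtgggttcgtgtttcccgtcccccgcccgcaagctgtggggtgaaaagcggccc
Xbp1 (GRCr8 chr14:84604373-84604622, plus strand): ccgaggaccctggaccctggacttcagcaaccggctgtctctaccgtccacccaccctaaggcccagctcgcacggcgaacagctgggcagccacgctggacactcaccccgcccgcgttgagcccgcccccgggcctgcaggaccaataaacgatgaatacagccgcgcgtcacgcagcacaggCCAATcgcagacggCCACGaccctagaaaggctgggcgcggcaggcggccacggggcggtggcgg
Calr (GRCr8 chr19:40213117-40213366, plus strand): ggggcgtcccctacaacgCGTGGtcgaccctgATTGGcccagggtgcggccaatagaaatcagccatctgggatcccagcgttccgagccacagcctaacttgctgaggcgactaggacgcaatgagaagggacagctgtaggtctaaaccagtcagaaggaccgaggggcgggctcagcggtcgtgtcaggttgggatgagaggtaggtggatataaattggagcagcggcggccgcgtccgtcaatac
Herpud1 (GRCr8 chr19:10614708-10614957, minus strand): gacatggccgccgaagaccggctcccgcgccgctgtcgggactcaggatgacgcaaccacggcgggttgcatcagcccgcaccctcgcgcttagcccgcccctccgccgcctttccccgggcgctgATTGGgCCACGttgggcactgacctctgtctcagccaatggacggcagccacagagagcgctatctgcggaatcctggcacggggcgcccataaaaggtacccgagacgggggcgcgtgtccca
Pdia4 (GRCr8 chr4:78153192-78153441, minus strand): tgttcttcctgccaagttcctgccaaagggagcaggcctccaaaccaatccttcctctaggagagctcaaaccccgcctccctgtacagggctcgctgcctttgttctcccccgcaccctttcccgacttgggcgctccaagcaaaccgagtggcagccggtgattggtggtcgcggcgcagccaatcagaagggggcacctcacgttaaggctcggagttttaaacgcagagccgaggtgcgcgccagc

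ERSE was found in 4 of the 9 windows, those of Hspa5, Hsp90b1, Xbp1 and Calr, against 22 of 33469 promoters in the table (0.0657%). It lay 43 to 25 bases before the start in Hspa5 and 65 to 47 bases before it in Xbp1. Hsp90b1 held a pair, 176 to 158 bases before the start on the strand of the gene and 72 to 54 bases before it on the other strand. In Calr it lay on the other strand, 232 to 214 bases before the start. ERSE-II was found only in the Herpud1 window among the 9, 124 to 114 bases before the start, and in 17 of all promoters (0.0508%). The 5 letters CCACG, which both elements contain, occurred in all 9 windows and in 31.6% of promoters, so the core alone is common. The UPR element, searched as TGACGTGG and so holding that core on the opposite strand, is bound by XBP1. This exact form was found in 0 of the 9 windows and in 0.595% of promoters. Forms that differ in a base, such as tgacgtga in the Hspa5 sequence above, were not searched. The windows of Pdia4, Dnajb9, Sdf2l1 and Edem1 held neither ERSE nor ERSE-II, and among these genes Dnajb9 was called higher, Pdia4 lower and the others did not pass the test. A match is a description of the letters, and no match says only that these letters are not in this window. The genes were picked as known genes of this response, several of them known to carry the element. The shares therefore do not test whether the elements are enriched.

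**Figure D1:**
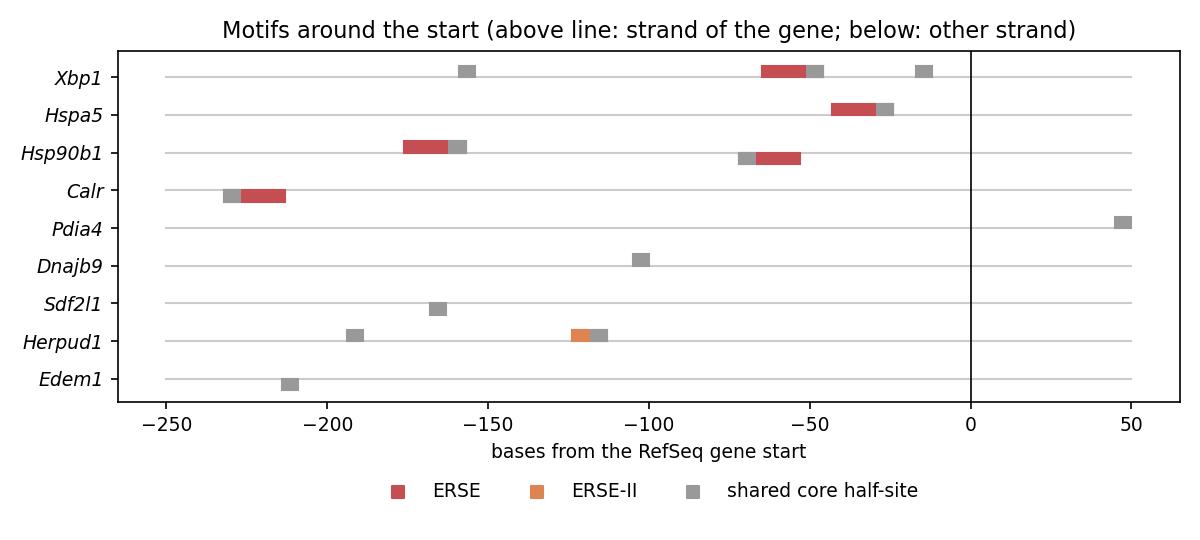
Positions of ERSE (red), ERSE-II (orange) and the core half-site they share (grey) in the RefSeq GRCr8 windows of 9 UPR genes, by distance in bases from the gene start (0, vertical line); blocks above a line are on the strand of the gene and blocks below it on the other. Hsp90b1 holds 2 ERSE, Xbp1, Hspa5 and Calr hold 1 each, Herpud1 holds ERSE-II, and Pdia4 holds only a core, after the start.

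Counts were compared as CPM, the read counts scaled to a common library size, after TMM correction of the libraries. Their totals were 10430924 to 12737131 in Control and 11658253 to 15191349 in STZ, with scaling factors of 0.988 to 1.02. The epithelial markers Krt8 and Tjp1 were abundant, Cdh1 had 16 to 35 reads per sample and Krt18 0 to 3, while Epcam, Krt19 and Ocln were not analysed here. NRK-52E is described by the study as a proximal tubular line, but the proximal tubule markers Lrp2, Cubn, Slc34a1, Slc5a2 and Slc2a2 had only 0 to 10 reads per sample, so these defining transcripts were near or at 0 in both groups. Of the other markers on that list, Ggt1 had 451 to 1220 reads per sample and was higher in STZ (log2 fold change 0.73), and Aqp1 had 66 to 167 reads and was lower (-1.25). The summed CPM of the epithelial list was 1706 to 1793 in Control and 2285 to 2290 in STZ (2 of 3 tested genes higher, 1 lower), and that of the fibroblast list 47.2 to 52.6 and 36.9 to 43.7 (2 of 2 tested lower, Col1a1 at 307 to 414 reads per sample). The proximal tubule list summed to 57.8 to 60.4 in Control and 74.9 to 87.1 in STZ, the immune list to 1.0 to 2.36 and 2.09 to 2.40, and the endothelial list to 0.455 to 0.754 and 0.80 to 1.13. Their part in the results was not tested.

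Of the 10 UPR genes, 5 were higher in STZ-treated cells (Xbp1, Dnajb9, Calr, Herpud1 and Hspa5), 1 was lower (Pdia4) and 4 did not pass the test (Hsp90b1, Sdf2l1, Edem1 and Ern1). The changes were small. The largest rise was 20.2%, in Xbp1, and Pdia4 was at 0.897 of the Control level. Genes were called at an adjusted p-value under 0.05 in the edgeR quasi-likelihood test, with the 11870 p-values adjusted together by the method of Benjamini and Hochberg. By the same rule 25.9% of all genes were called higher, 25.1% lower and 50.9% in either direction, so a count of 6 called in 10 is near the background. An absolute log2 fold change over 1 was reached as well by 3.37% of all genes and by 0 of the 10, in the fit reported and in all 14 alternative fits. The median log2 fold change of the 10 genes was 0.12 (range -0.16 to 0.27), against -0.0055 over all genes. These are levels in bulk RNA, in which fewer cells of a kind and less RNA per cell cannot be told apart.

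**Figure D2:**
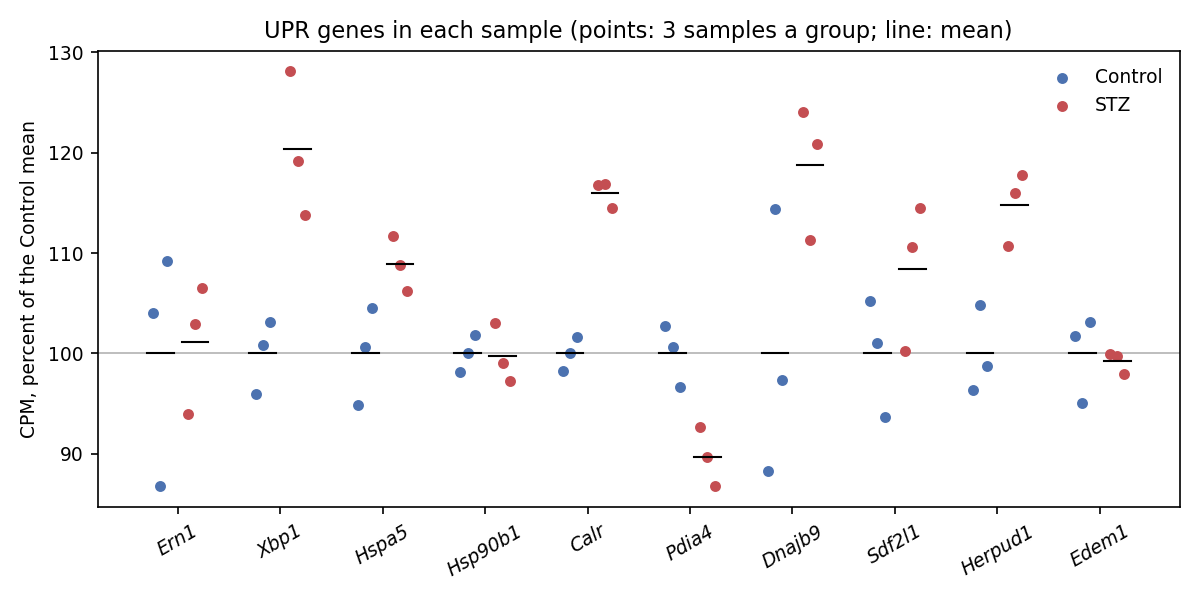
CPM of each UPR gene in each of the 6 samples, as a percentage of the Control mean of that gene (vertical axis, not starting at 0); points are samples, 3 a group, and black lines are group means. Every STZ sample lies above every Control sample for Xbp1, Hspa5, Calr and Herpud1 and below for Pdia4, and the groups overlap for the other 5 genes.

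The sensor and its target came first. Ern1 encodes IRE1α, the kinase and endoribonuclease that splices Xbp1 mRNA. It had 15.4, 12.8 and 16.1 CPM in Control replicates 1, 2 and 3 and 13.9, 15.2 and 15.7 CPM in STZ replicates 1, 2 and 3, from 141 to 236 reads per sample. The groups overlapped throughout, and the lowest and the highest value were both Control samples. For Ern1 the log2 fold change was 0.01 (95% confidence interval -0.20 to 0.22, edgeR adjusted p = 0.932), so a change larger than 1.16-fold up or to 0.873 of Control was outside the interval. Its direction depended on the scaling, with an estimate of -0.021 with library size only.

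Xbp1 encodes the transcription factor made from the spliced mRNA. It had 81.7, 85.8 and 87.8 CPM in Control and 109, 101 and 96.9 CPM in STZ. All 3 STZ samples lay above all 3 Control samples. Its log2 fold change was 0.27 (SE 0.05, edgeR adjusted p = 2.1e-05), the largest of the 10. It was called in all 14 alternative fits, between 0.22 and 0.31. Within a library, Xbp1 had 5.32, 6.70 and 5.44 reads per read of Ern1 in Control and 7.85, 6.67 and 6.15 in STZ. Those ratios overlapped (exact two-sided permutation p = 0.3).

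The lumenal chaperones and lectins moved unequally. Hspa5 encodes BiP, the HSP70 chaperone that also binds the sensors and is the usual marker of the response. It had 2093, 2221 and 2306 CPM in Control and 2465, 2401 and 2343 CPM in STZ, from 22205 to 35121 reads per sample. The groups did not overlap, but STZ replicate 3 lay close above Control replicate 3. Hspa5 had a log2 fold change of 0.12 (SE 0.04, 95% confidence interval 0.05 to 0.20, edgeR adjusted p = 0.0042), a rise of 8.88%. Without Control replicate 1, the lowest sample, it was 0.09 (edgeR adjusted p = 0.0573) and no longer passed the test.

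Hsp90b1 encodes GRP94, the HSP90 chaperone of the ER. It had 1832, 1866 and 1900 CPM in Control and 1923, 1848 and 1815 CPM in STZ, so the highest and the lowest samples were both STZ. Its log2 fold change was -0.0033 (95% confidence interval -0.07 to 0.07, edgeR adjusted p = 0.945), and its sign changed with the samples left out. The interval reached from 0.951 to 1.05 of Control, the narrowest band among the 4 genes that did not pass the test.

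Calr encodes calreticulin, a calcium-binding lectin that holds newly made glycoproteins. It had 2021, 2059 and 2090 CPM in Control and 2401, 2403 and 2354 CPM in STZ. The groups did not overlap, and the samples of each lay close together. Calr had a log2 fold change of 0.21 (SE 0.03, edgeR adjusted p = 9.2e-07), the smallest p of the 10, and it was between 0.18 and 0.23 in the 14 alternative fits. Hspa5, Calr and Hsp90b1 all hold ERSE in the sequences above, with the pair of elements in Hsp90b1, which did not pass the test.

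Pdia4 encodes ERp72, a protein disulfide isomerase with several thioredoxin-like domains. It had 866, 848 and 815 CPM in Control and 781, 756 and 732 CPM in STZ. Every STZ sample was below every Control sample. Pdia4 had a log2 fold change of -0.16 (SE 0.04, edgeR adjusted p = 3.3e-04), and the call held in all 14 alternative fits, between -0.19 and -0.13. Pdia4 was the 1 gene of the 10 called lower.

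**Figure D3:**
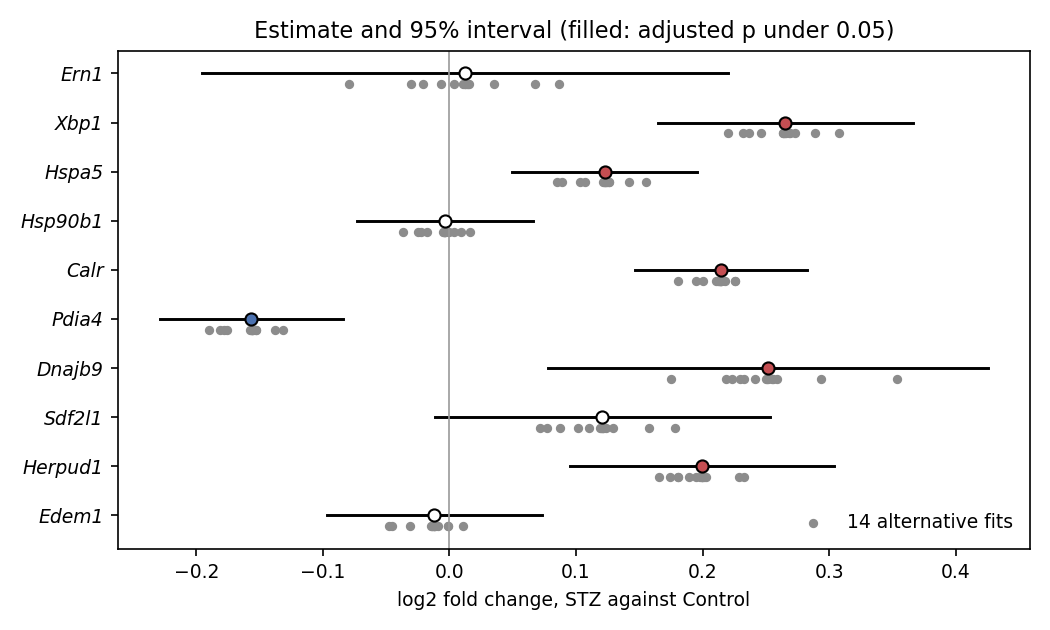
Log2 fold change (STZ against Control) of each UPR gene with its 95% confidence interval; filled circles passed an adjusted p-value of 0.05 (red higher, blue lower) and grey points below each are the 14 alternative fits. Xbp1, Calr, Herpud1, Hspa5 and Dnajb9 lie right of 0, Pdia4 left of it, and the alternatives of Hsp90b1, Edem1 and Ern1 fall on both sides.

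Read counts of a pair of genes in the same library can be divided without any scaling. Hspa5 had 1.14, 1.19 and 1.21 reads per read of Hsp90b1 in Control and 1.28, 1.30 and 1.29 in STZ. Calr had 1.10, 1.10 and 1.10 reads per read of Hsp90b1 in Control and 1.25, 1.30 and 1.30 in STZ. Pdia4 had 0.414, 0.382 and 0.353 reads per read of Hspa5 in Control and 0.317, 0.315 and 0.312 in STZ. In each of these ratios all STZ samples stood on 1 side of all Control samples, a comparison that does not involve the library scaling. Of 7 such ratios computed, 6 did not overlap. The exact two-sided permutation p was 0.1 for each of these, the smallest that 3 samples against 3 allow (Benjamini-Hochberg adjusted 0.117). The pairs were picked after values were seen, and several share a gene. Among all single genes, every STZ sample lay above every Control sample in 28.6% and below in 27.7%. The share among other gene pairs was not computed. None of the 7 had a permutation p under 0.05, and a ratio does not show which of its 2 genes changed.

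**Figure D4:**
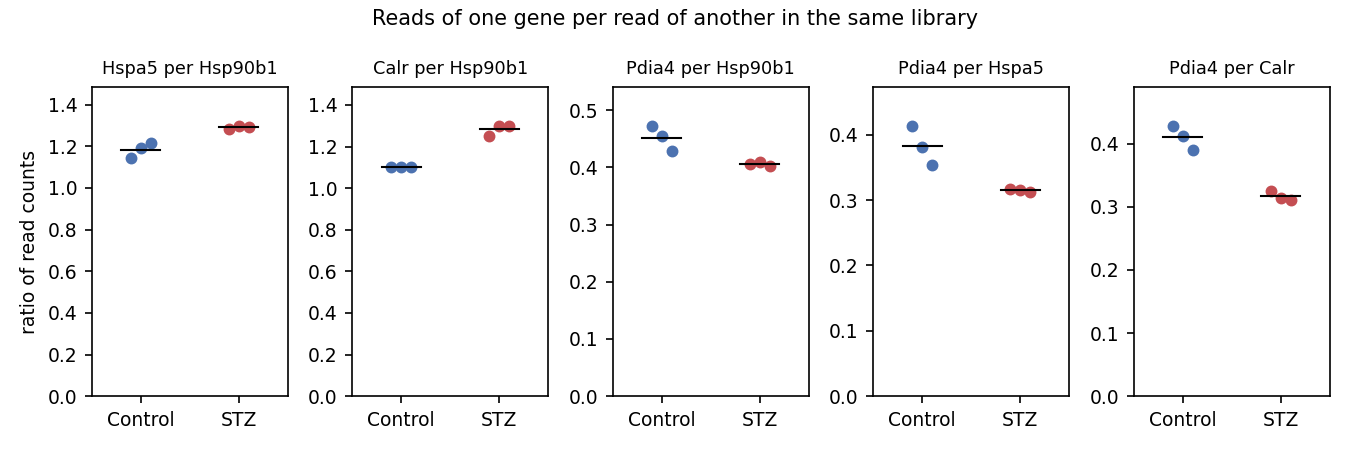
Reads of one gene per read of another in the same library, for 5 pairs of UPR genes (vertical axes from 0); points are samples, 3 in Control and 3 in STZ, and black lines are group means. Hspa5 and Calr per Hsp90b1 are higher in every STZ sample, and Pdia4 per Hsp90b1, Hspa5 or Calr is lower in every STZ sample.

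Both co-chaperones had positive estimates and wide spreads. Dnajb9 encodes ERdj4, a J-domain protein that works with BiP and is a known XBP1 target. It had 18.7, 24.2 and 20.6 CPM in Control and 26.2, 23.5 and 25.6 CPM in STZ, from 198 to 383 reads per sample. The groups overlapped, since Control replicate 2 was above STZ replicate 2. Dnajb9 had a log2 fold change of 0.25 (SE 0.09, edgeR adjusted p = 0.0132). The call was lost without Control replicate 1 (0.18, edgeR adjusted p = 0.111), without STZ replicate 1 (0.22, edgeR adjusted p = 0.0608) and with the DESeq2 Wald test (0.25, DESeq2 adjusted p = 0.0569). Over all 14 alternatives its edgeR, limma or DESeq2 adjusted p was 0.0025 to 0.111.

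Sdf2l1 encodes a lumenal partner of the J-domain proteins ERdj3 and ERdj6 that helps the BiP cycle. It had 42.5, 40.8 and 37.8 CPM in Control and 40.5, 44.7 and 46.2 CPM in STZ. STZ replicate 1 lay within the Control range and the others above it. The log2 fold change was 0.12 (95% confidence interval -0.01 to 0.25, edgeR adjusted p = 0.123), and it passed only without STZ replicate 1 (0.18, edgeR adjusted p = 0.0383). Over the 14 alternatives the adjusted p from edgeR, limma or DESeq2 was 0.0383 to 0.432.

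The 2 genes of ER-associated degradation differed. Herpud1 encodes HERP, a membrane protein that organises the retrotranslocation complex around the ubiquitin ligase HRD1. It had 66.5, 72.3 and 68.1 CPM in Control and 76.3, 79.9 and 81.2 CPM in STZ, with no overlap. Herpud1 had a log2 fold change of 0.20 (SE 0.05, edgeR adjusted p = 0.0012), and it was called in all 14 alternative fits. Edem1 encodes a lectin-like protein that hands misfolded glycoproteins to degradation. It had 171, 160 and 173 CPM in Control and 168, 167 and 164 CPM in STZ, so the STZ samples fell inside the Control range. Its log2 fold change was -0.01 (95% confidence interval -0.10 to 0.07, edgeR adjusted p = 0.833). Within a library, Herpud1 had 0.389, 0.453 and 0.393 reads per read of Edem1 in Control and 0.455, 0.478 and 0.494 in STZ.

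Every STZ sample lay above every Control sample in 4 of the 10 genes, against 28.6% of all genes, and below in 1 of 10, against 27.7%. Together the 10 genes took 0.733%, 0.745% and 0.757% of the reads in Control and 0.791%, 0.774% and 0.757% in STZ. Hspa5, Hsp90b1 and Calr gave 82.5% to 83.8% of those reads in Control and 84.8% to 84.9% in STZ, so the summed share follows these 3 genes. Levels of different genes were not ranked against each other, because transcript lengths of the build used for counting were not used here. In the RefSeq annotation of GRCr8, a later build than the Rnor6 used for counting, an unnamed long non-coding RNA overlaps Dnajb9. There LOC102553339 overlaps Herpud1 and a ribosomal pseudogene overlaps Ern1. Whether the annotation used for counting held these overlaps, and whether counting used strand, is not given in the sources used here. If it held them, reads of each overlapping pair could have been assigned to either gene or to neither.

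Among 9822 genes outside the 10 with a symbol and a mean of at least 50 reads, those whose centred log2 CPM ran closest to that of Hspa5 over the 6 samples were Slc30a9, Arhgap27, Mboat7, Nudcd3 and Msi2. Their root mean square differences from Hspa5 were 0.01 to 0.02 on the log2 scale. Among the UPR genes, Calr ran closest, at 0.05, with 427 of the 9822 genes closer than it. Pdia4 was the farthest, at 0.16, with 5695 genes closer.

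The rest of the pathway was described through 6 lists of 80 genes in all. Manf and Qsox1 did not pass the filter, and Ern2, Creb3, Srprb and Ppp1r15a were not analysed here. Of the 74 genes tested, 33 were higher, 10 lower and 31 did not pass the test, with a median log2 fold change of 0.09. Over all genes tested 25.9% were higher and 25.1% lower. Among other chaperones and co-chaperones, 5 of 13 were higher and 2 lower, with a median of -0.02. Uggt1, which re-glucosylates misfolded glycoproteins so that calreticulin and calnexin bind them again, had a log2 fold change of 0.34. Fkbp2, a prolyl isomerase of the ER, fell from 58.9, 59.8 and 54.6 CPM to 40.4, 37.2 and 38.6 CPM, a log2 fold change of -0.57. Canx, the membrane-bound relative of calreticulin, and Dnajb11, a J-domain partner of BiP, rose by 0.12 and 0.24 on the log2 scale.

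Among other disulfide isomerases and oxidases, 6 of 12 were higher and 2 lower, with a median of 0.14. Of all genes 25.9% were higher and 25.1% lower. Pdia3, the isomerase that works on glycoproteins with calreticulin and calnexin, rose from 935, 908 and 924 CPM to 1102, 1100 and 1128 CPM, a log2 fold change of 0.27. Txndc5, another thioredoxin-domain isomerase, fell by 0.44 on the log2 scale, the same direction as Pdia4.

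Of 17 other degradation genes, 9 were higher and 3 lower, with a median of 0.12, where 25.9% and 25.1% of all genes were. Selenos, a membrane selenoprotein that binds the retrotranslocation machinery, rose by 0.27 on the log2 scale. Of 11 other sensors, proteases and factors, 4 were higher and 1 lower, against the same 25.9% and 25.1%. Mbtps1, the Golgi protease that makes the first cut in ATF6, fell from 425, 416 and 421 CPM to 344, 343 and 346 CPM, a log2 fold change of -0.29. Creb3l1, an ATF6-like membrane factor also cut by that protease, rose by 0.69 on the log2 scale, a sparse gene with 68 to 152 reads in a sample. Atf6 and Eif2ak3, the genes of the sensors ATF6 and PERK, rose by 0.14 and 0.21 on the log2 scale, with overlapping groups for Atf6.

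Of 14 translocation genes, 4 were higher and 2 lower, where 25.9% and 25.1% of all genes were. Sec11c, a catalytic subunit of the signal peptidase, rose from 37.3, 42.4 and 42.3 CPM to 67.7, 66.4 and 70.9 CPM, a log2 fold change of 0.75. Sec62, a partner of the translocon, rose by 0.31 on the log2 scale.

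Of 7 tested genes of the PERK, ATF4 and CHOP branch, 5 were higher (Sesn2, Ddit3, Atf3, Chac1 and Trib3), with log2 fold changes of 0.39 to 1.71 against at most 0.27 among the 10 UPR genes. Atf4 and Asns did not pass the test, the list median was 0.84, and 2 genes also passed the fold-change threshold. Over all genes tested, 25.9% were called higher and 3.37% passed both thresholds. Atf3, a stress-induced transcription factor, rose from 2.64, 3.0 and 2.73 CPM to 9.09, 10.2 and 8.27 CPM, a log2 fold change of 1.71, with 28 to 125 reads in a sample. Sesn2, an inhibitor of mTORC1 signaling that p53 also controls, had a log2 fold change of 1.30. Ddit3, which encodes the pro-apoptotic factor CHOP, rose from 21.0, 24.0 and 21.2 CPM to 38.5, 40.6 and 39.4 CPM, a log2 fold change of 0.84. The Atf4 mRNA itself had 246, 238 and 258 CPM in Control and 238, 251 and 249 CPM in STZ, a log2 fold change of -0.0093 (edgeR adjusted p = 0.866). The difference between this list and the 10 UPR genes was not tested. Whether the PERK branch raised the genes of this list was not tested either.

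**Figure D5:**
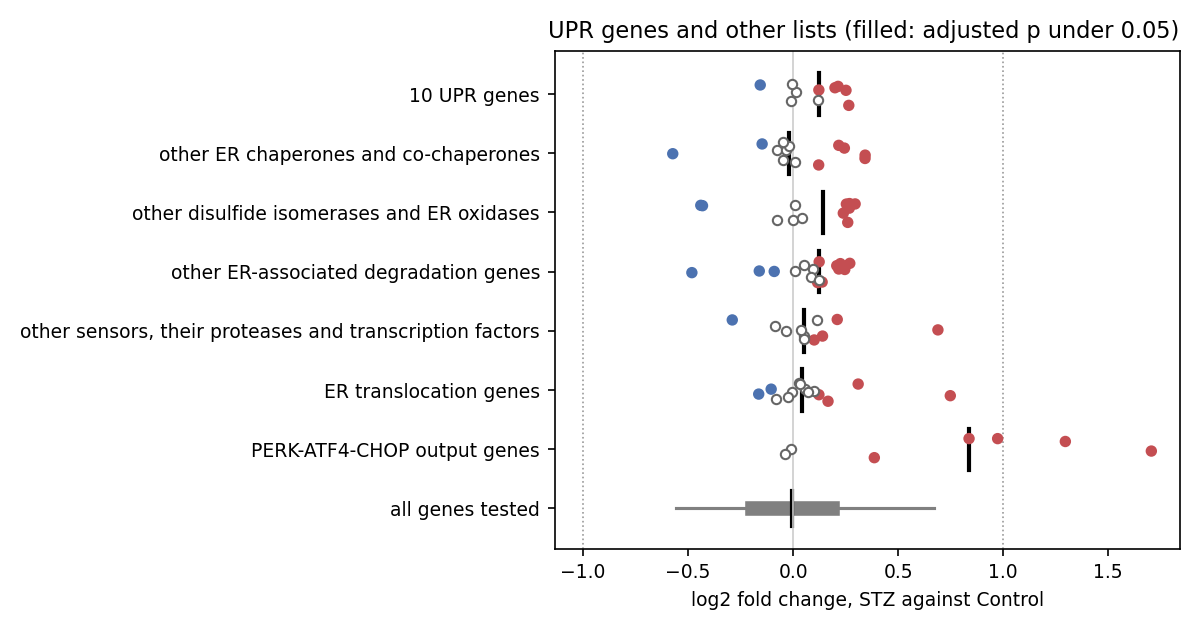
Log2 fold change (STZ against Control) of the 10 UPR genes and of every tested gene in 6 other lists; filled points passed an adjusted p-value of 0.05 (red higher, blue lower), black ticks are medians, dotted lines mark -1 and 1, and the grey bar shows the 25th to 75th (thick) and 5th to 95th (thin) percentiles of all genes tested. The 10 UPR genes lie between -0.16 and 0.27, and only Atf3 and Sesn2 lie beyond 1.

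The ERSE search was also read across the whole table. Of 16 tested genes with ERSE in the window, 12 lay outside the 10 UPR genes, and of these 5 were called higher and 3 lower, where 25.9% and 25.1% of all genes were, and their log2 fold changes had a median of 0.04 (range -0.48 to 0.51). Dnajc3, a BiP co-chaperone that also restrains PERK, had 0.34, and Creld2, an ER protein induced in stress, had -0.05 (edgeR adjusted p = 0.386). Of the 8 such genes with ERSE-II outside the 10, 2 were higher and 2 lower. Hyou1, an HSP70-like nucleotide exchange factor of BiP that holds ERSE-II, had -0.07 (edgeR adjusted p = 0.103), while Dnajb11, which also holds it, was called higher.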

How the data were processed

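The authors made stranded mRNA libraries (TruSeq), sequenced them as single-end 100-bp reads, mapped these to the rat genome (Rnor6) with STAR 2.7.10a and used featureCounts to count, per gene, reads with a unique position. The annotation release and the strand setting of the counting are not given in the sources used here. They deposited raw counts, 1 column per sample, with no normalization. The table held 18930 rows, of which 2871 had only an Ensembl identifier and 422 shared a name, and each row was tested as it stands. Columns were tied to groups by their titles.

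Low counts were filtered with filterByExpr, libraries scaled by TMM and groups compared by the quasi-likelihood test of edgeR 4.0.16 (R 4.3.3). A gene was called by 2 rules, an adjusted p-value under 0.05, and the same with a log2 fold change beyond 1 in either direction. Standard errors are the absolute log2 fold change over the square root of F, and intervals are 95%. The steps were tested on simulated data. The UPR genes and lists were chosen with earlier results of these data known. From each other list the 2 smallest p-values and genes past both thresholds were named, except 1 gene that is not reported here. For Hspa5, the 5 genes with the closest pattern were named. Canx, Dnajb11, Chac1, Trib3, Asns, Atf6, Eif2ak3, Atf4, Dnajc3, Creld2 and Hyou1, the read ratios and the ERSE gene counts were added after values were seen. Alternatives were 2 filters, 3 scalings, the DESeq2 1.42.0 Wald test, limma-voom (limma 3.58.1), a replicate block, and each sample left out. No pair of replicates matched within counting error (chi-square per degree of freedom at least 1.85), and each was counted as 1 sample. That check cannot tell separate cultures from separate libraries of 1 culture. The common biological coefficient of variation, the spread between replicates beyond counting error, was 3.25%. Promoter sequences came from RefSeq (GRCr8).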

Additional observations from a re-analysis of the deposited data

How the results depend on the processing

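Of 140 refits of the 10 genes, 127 kept the direction and the side of the threshold, 4 lost a call (Hspa5 once and Dnajb9 in 3), 1 gained one (Sdf2l1) and 8 turned direction, all in genes that did not pass the test. With one sample left out, log2 fold changes were -0.024 to 0.016 for Hsp90b1, -0.048 to 0.011 for Edem1 and -0.079 to 0.086 for Ern1, which was also -0.021 with library size only and -0.0065 with the upper quartile. The number of UPR genes called higher, 5, was 4 with the DESeq2 Wald test, 3 to 5 with one sample left out, and 3 without Control replicate 1. Without STZ replicate 1 it was again 5, but with Sdf2l1 called and Dnajb9 not. Other pathway genes called lower, 10, were 14 with library size only, 12 with the upper quartile, 6 with the DESeq2 Wald test, 6 to 9 with one sample left out and 6 without STZ replicate 2; the cause was not tested. Genes past both thresholds, 400, were 585 with no filter, 249 when each sample had to hold at least 10 counts, a filter that tests fewer genes, and 403 to 462 after leaving out a sample. Library size only moved the median of all genes to -0.0391, the largest shift of the scalings.

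Control and STZ samples of the same number, each taken relative to its group mean, correlated at 0.0319, -0.0389 and 0.102 over 10341 genes. The sources used here do not say whether samples of the same number were handled together. With 3 samples a group these correlations cannot settle it. STZ replicates 1 and 3 correlated best with the Control of their own number, and STZ replicate 2 with Control replicate 1. With the replicate block 5 UPR genes were higher and 1 lower, 34 and 10 other pathway genes were, and 398 genes passed both thresholds. Ern1, at 141 to 236 reads per sample, had an interval from 0.873-fold to 1.16-fold, so changes within that range were not excluded.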
